A study of Mus musculus with 6 samples.

Results

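Natural killer (NK) cells are the cytotoxic lymphocytes that a SCID mouse keeps when its T and B cells are missing, and 10 of their effector genes were followed in whole lungs. The genes were taken by symbol: 4 receptors (Ncr1, Klrb1c, Klrd1, Klre1), 2 transcription factors (Eomes, Tbx21) and 4 genes of the cytotoxic granule (Nkg7, Gzma, Gzmb, Prf1). All 10 were among the 24054 gene rows, and all 10 passed the filter on low values that left 14159 genes for testing. The lungs came from 6 female SCID mice, each given extracellular vesicles (EVs) by tail vein and, 48 h later, an intravenous dose of rat ELT3 cells, which serve as a lymphangioleiomyomatosis model, and each lung was collected 72 h after those cells. The EVs were labelled, carried CD9, CD63 and CD81, and came from cultured neural progenitors of E15.5 mouse embryos. The EVs of 3 mice came from wild-type progenitors (WT EV) and those of the other 3 mice from progenitors lacking Tsc1 (Tsc1-null EV), and this was the only labelled difference between the groups. The age and background strain of the mice were not given in the sources used here, and lungs of mice that had neither EVs nor ELT3 cells were not analysed here.

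NK cells kill without prior exposure, by weighing signals from activating and inhibitory receptors. A cell that is triggered releases granules in which perforin opens the target membrane and granzymes cleave proteins inside it. The T-box factors T-bet (Tbx21) and eomesodermin (Eomes) drive their maturation and the transcription of granule genes. In the lung, a vascular bed that retains circulating tumour cells, NK cells are known as an early barrier to metastatic seeding.

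The promoter letters of the members are shown because these genes are expressed in the same type of cell. RefSeq start sites of build GRCm38.p6 matched 9 of the 10 members by symbol, with 11 promoters in all, and Klrd1 was not matched. In the 250 bases before each start, 3 short motifs were searched on both strands: the T-box core GGTGTG, the RUNX core TGTGGT and the STAT pattern TTCNNNGAA, of which the first and second can overlap. The RUNX core was in the promoters of 7 of the 9 genes (Gzma, Gzmb, Klrb1c, Klre1, Ncr1, Nkg7 and Prf1) and in 8 of the 11 promoters, where 14.0% of all 32851 RefSeq promoters of this length hold it. The T-box core was in 1 gene, Nkg7, against 16.3% of all promoters, and the STAT pattern also in Nkg7 alone, against 7.02%. The Eomes and Tbx21 promoters held none of these letters. A match is a string of letters and no measurement of binding. Shown 5′ to 3′ on the gene's strand are the promoters of the activating receptor and of the 3 killing proteins, with the RUNX core or its reverse complement in capitals, from chr7:4337474-4337723 (plus strand), chr13:113100982-113101231 (minus), chr14:56262335-56262584 (minus) and chr10:61297586-61297835 (plus).
Ncr1: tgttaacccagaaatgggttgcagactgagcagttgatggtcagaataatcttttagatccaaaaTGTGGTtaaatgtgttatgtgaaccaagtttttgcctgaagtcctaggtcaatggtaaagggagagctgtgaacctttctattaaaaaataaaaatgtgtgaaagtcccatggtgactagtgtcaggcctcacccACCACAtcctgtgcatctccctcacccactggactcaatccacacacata
Gzma: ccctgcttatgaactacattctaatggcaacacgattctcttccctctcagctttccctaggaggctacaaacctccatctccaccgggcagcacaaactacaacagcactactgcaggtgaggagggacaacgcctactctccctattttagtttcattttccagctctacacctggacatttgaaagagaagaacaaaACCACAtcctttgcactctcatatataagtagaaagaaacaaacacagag
Gzmb: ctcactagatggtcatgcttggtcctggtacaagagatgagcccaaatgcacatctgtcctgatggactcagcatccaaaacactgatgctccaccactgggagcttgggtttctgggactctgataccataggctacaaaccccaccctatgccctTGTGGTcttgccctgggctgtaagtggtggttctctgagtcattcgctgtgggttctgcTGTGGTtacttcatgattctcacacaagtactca
Prf1: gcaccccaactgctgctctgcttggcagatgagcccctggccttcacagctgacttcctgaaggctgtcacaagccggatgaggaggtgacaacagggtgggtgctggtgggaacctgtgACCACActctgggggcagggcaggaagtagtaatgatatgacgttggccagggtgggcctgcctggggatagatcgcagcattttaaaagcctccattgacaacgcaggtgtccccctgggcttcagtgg
In Ncr1 the core began 185 bases before the start and, on the other strand, 50 bases before it. Gzma likewise held it at 50 bases before the start, Gzmb at 93 and at 34, and Prf1 at 130. Runx3, the RUNX factor tied to cytotoxic lymphocytes and named here because of this motif, stood at 6.10, 4.70 and 2.84 in the WT EV lungs and at 11.03, 4.53 and 4.86 in the Tsc1-null EV lungs, with overlapping groups.

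Libraries held 5101413 to 9358820 reads assigned to genes, and levels below are TMM-normalized CPM (reads scaled to a common library total), which correct for depth and composition but not for gene length. At this depth a member had between 1 and 363 reads in a library, so counting error is a large part of several values. A library of each group was unlike the remaining 4: the median correlation with the rest was 0.963 for replicate 2 of WT EV and 0.942 for replicate 1 of Tsc1-null EV, against 0.980 to 0.983 in the others. In these 2, called below the libraries that stood apart, the nuclear RNA Malat1 was at 15673 and 30060, against 1609 to 2819 elsewhere, and Tsc1-null EV replicate 1 also had the fewest reads. The log2 folds of the members are therefore given with and without these 2 libraries. Ratios and the other lists are given with all 6 libraries only. In whole lung, fewer NK cells and less RNA per NK cell cannot be told apart.

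Of the receptors, 3 of 4 had lower mean levels with Tsc1-null EV, and the fourth did not, though no difference passed the test. All 4 granule genes had lower means, at 0.600 times the WT EV mean for Gzmb and nearer to it for the rest, with overlapping lungs, and the transcription factors pointed in opposite directions. Limma called 0 of the 10 members at an adjusted p under 0.05, against 0% of all 14159 genes, and 0 of the 10 had an unadjusted p under 0.05, where 6.57% of all genes did. EdgeR and DESeq2 on the recovered reads also called 0 members, with 0 at an unadjusted p under 0.05 (6.93% and 5.22% of all genes), and DESeq2 gave no adjusted p for 9 of them. The median log2 fold of the 10 members (value + 1, Tsc1-null EV over WT EV) was -0.31, beside -0.02 for all genes tested. Below 0 were 8 of the 10 members, beside 52.7% of all genes. Leaving out WT EV replicate 1 brought this median to -0.02, leaving out Tsc1-null EV replicate 1 to -0.07 and leaving out WT EV replicate 2 to -0.52. With both libraries that stood apart left out it was -0.35.

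**Figure D1:**
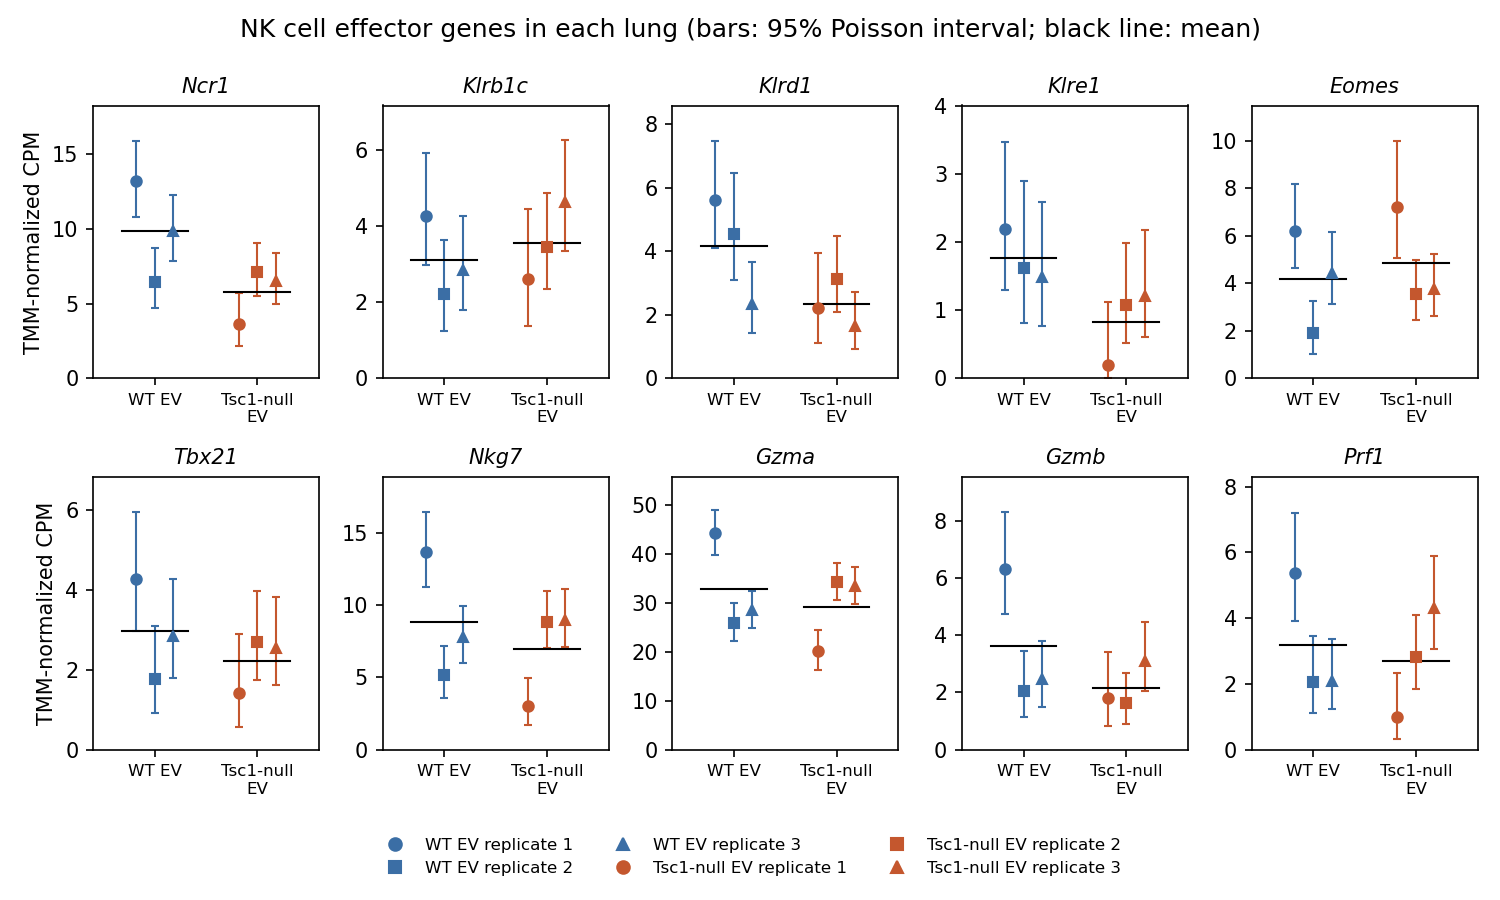
Level of each member gene in TMM-normalized CPM (vertical axes, from 0) in the 3 WT EV and 3 Tsc1-null EV lungs, with 95% Poisson intervals of the reads and the group mean as a black line. WT EV replicate 1 is the highest lung in 8 of the 10 panels, and the groups are separate in the Klre1 panel alone.

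Ncr1 encodes NKp46, an activating receptor and the most selective marker of NK cells and related innate lymphocytes. Its level was 13.2, 6.47 and 9.87 in the WT EV lungs and 3.61, 7.12 and 6.52 in the Tsc1-null EV lungs. Every Tsc1-null EV lung lay below 2 of the WT EV lungs, and the groups overlapped because of WT EV replicate 2, which at 6.47 lay just below the upper 2 Tsc1-null EV lungs. The means were 9.84 ± 3.35 and 5.75 ± 1.88 (SD, n = 3 each), a log2 fold of -0.68 ± 0.31 (SE, 95% interval -1.38 to 0.03, limma adjusted p = 0.721). It was -0.42 without Tsc1-null EV replicate 1. The lowest lung, Tsc1-null EV replicate 1, rested on 18 reads, and the highest, WT EV replicate 1, on 108.

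Klrd1 encodes CD94, the partner with which NKG2 chains form receptors for the nonclassical MHC molecule Qa-1. Its level was 5.61, 4.56 and 2.34 with WT EV and 2.21, 3.13 and 1.66 with Tsc1-null EV. The upper 2 WT EV lungs exceeded every Tsc1-null EV lung, while WT EV replicate 3 lay among them. The log2 fold was -0.60 ± 0.32 (SE, n = 3 each, 95% interval -1.32 to 0.12, limma adjusted p = 0.728), and it was -0.40 without WT EV replicate 1 and -0.031 when limma weighted the libraries by their spread.

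Klre1 encodes a lectin-like receptor of the NK gene complex that can pair with other members of its family. It was the least abundant member, at 2.20, 1.62 and 1.48 with WT EV and 0.20, 1.08 and 1.22 with Tsc1-null EV. All 3 Tsc1-null EV lungs lay below all 3 WT EV lungs, which made Klre1 the 1 member of 10 with separate groups, against 6.22% of all genes separated on the lower side, 6.86% on the higher side (0 members) and 13.1% on either. With WT EV replicate 2 left out 3 members had separate groups, where 22.1% of all genes did. Dropping replicate 3 of WT EV left 2 members separate (18.8% of all genes), as did dropping replicate 2 (18.8%) or 3 (27.2%) of Tsc1-null EV, and dropping replicate 1 left 1 member separate for WT EV (24.7%) and 1 for Tsc1-null EV (29.1%). Against these shares the counts are not a result about the members. For Klre1 the log2 fold was -0.64 ± 0.32 (SE, n = 3 each, 95% interval -1.36 to 0.09, limma adjusted p = 0.721). It was -0.36 without Tsc1-null EV replicate 1, -0.39 without both libraries that stood apart, -0.34 with sample weights and -1.25 with a pseudocount of 0.1 in place of 1. The value of Tsc1-null EV replicate 1 rested on 1 read, with a 95% Poisson interval of 0.00508 to 1.12 CPM that covers counting error only.

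Klrb1c encodes NK1.1, an activating receptor that defines NK cells in C57BL/6 mice and a few other strains. Its level was 4.27, 2.20 and 2.84 with WT EV and 2.61, 3.45 and 4.64 with Tsc1-null EV, and the lungs of the groups were interleaved. The log2 fold of 0.16 ± 0.28 (SE, n = 3 each, 95% interval -0.48 to 0.80) was on the other side of 0 from those of the other 3 receptors. It lay at -0.002 without WT EV replicate 2 and at -0.004 without Tsc1-null EV replicate 3. Of the 50-base words in its transcripts, 17.0% also occur in other genes, among them Gm44511, Klrb1a and Klrb1b. Its own level is therefore less certain than that of the members with few or no shared words (0% to 2.1%).

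Summed over the 4 receptors, the level was 25.3, 14.8 and 16.5 in the WT EV lungs and 8.62, 14.8 and 14.0 in the Tsc1-null EV lungs. The lowest WT EV lung (14.84) and the highest Tsc1-null EV lung (14.77) differed by less than the value of 1 read in either library (0.147 and 0.108).

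Both transcription factors were low. Tbx21, which encodes T-bet, was at 4.27, 1.76 and 2.84 with WT EV and 1.40, 2.70 and 2.54 with Tsc1-null EV, with a log2 fold of -0.28 ± 0.32 (SE, n = 3 each). With replicate 1 left out that fold was -0.05 (WT EV) or -0.08 (Tsc1-null EV), and dropping replicate 2 of WT EV brought it to -0.51. Eomes, whose product separates NK cells from type 1 innate lymphoid cells (ILC1), was at 6.22, 1.91 and 4.44 with WT EV and at 7.22, 3.56 and 3.76 with Tsc1-null EV. Its log2 fold was 0.21 ± 0.38, and its direction turned when a library was left out, to -0.06 for Tsc1-null EV replicate 1, to -0.16 for WT EV replicate 2 and to -0.43 for both. Those 2 libraries were the highest and the lowest for Eomes. In the 4 libraries left, Ncr1, Klre1, Eomes and Tbx21 were lower in both Tsc1-null EV lungs than in both WT EV lungs, 4 of 10 members, where 21.5% of all genes were separated on that side, and 0 members were separated on the higher side, where 20.8% of all genes were.

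Granule genes had a higher summed level than the receptors. Gzma encodes granzyme A, a tryptase-like protease, and was at 44.3, 25.9 and 28.5 in the WT EV lungs and 20.0, 34.2 and 33.4 in the Tsc1-null EV lungs. The highest and the lowest lung were both replicate 1 of their group, and the other 4 lungs ran the other way, with the Tsc1-null EV lungs higher. The means were 32.9 ± 9.95 and 29.2 ± 7.93 (SD, n = 3 each), a log2 fold of -0.17 ± 0.27 (SE, 95% interval -0.77 to 0.44). Leaving out either of these replicate 1 lungs turned the fold, to 0.06 for that of WT EV and 0.08 for that of Tsc1-null EV.

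Gzmb encodes granzyme B, which cleaves after aspartate and activates caspases. It stood at 6.34, 2.06 and 2.47 with WT EV and 1.80, 1.62 and 3.09 with Tsc1-null EV. WT EV replicate 1 was far above the other 5 lungs, which lay close together. The log2 fold of -0.46 ± 0.37 (SE, n = 3 each, limma adjusted p = 0.813) shrank to -0.07 without that lung. Without both libraries that stood apart it was -0.62.

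Prf1 encodes perforin. Its level was 5.37, 2.06 and 2.098 with WT EV and 1.00, 2.80 and 4.31 with Tsc1-null EV, so each group spanned most of the range of the other. The log2 fold was -0.19 ± 0.43 (SE, n = 3 each, 95% interval -1.17 to 0.78), and it turned to 0.16 when WT EV replicate 1 was left out, to 0.20 for Tsc1-null EV replicate 1 and to 0.02 without both libraries that stood apart.

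Nkg7 encodes a granule membrane protein needed for efficient release of granules. Its level was 13.7, 5.14 and 7.77 with WT EV and 3.01, 8.84 and 8.95 with Tsc1-null EV. As for Gzma, the 2 Tsc1-null EV lungs other than replicate 1 lay above the lower 2 WT EV lungs. The log2 fold of -0.34 ± 0.43 (SE, n = 3 each) turned to 0.10 without Tsc1-null EV replicate 1. Summed over the 4 granule genes, the level was 69.7, 35.1 and 40.8 in the WT EV lungs and 25.9, 47.4 and 49.7 in the Tsc1-null EV lungs, with the extremes again in the replicate 1 lung of each group.

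**Figure D2:**
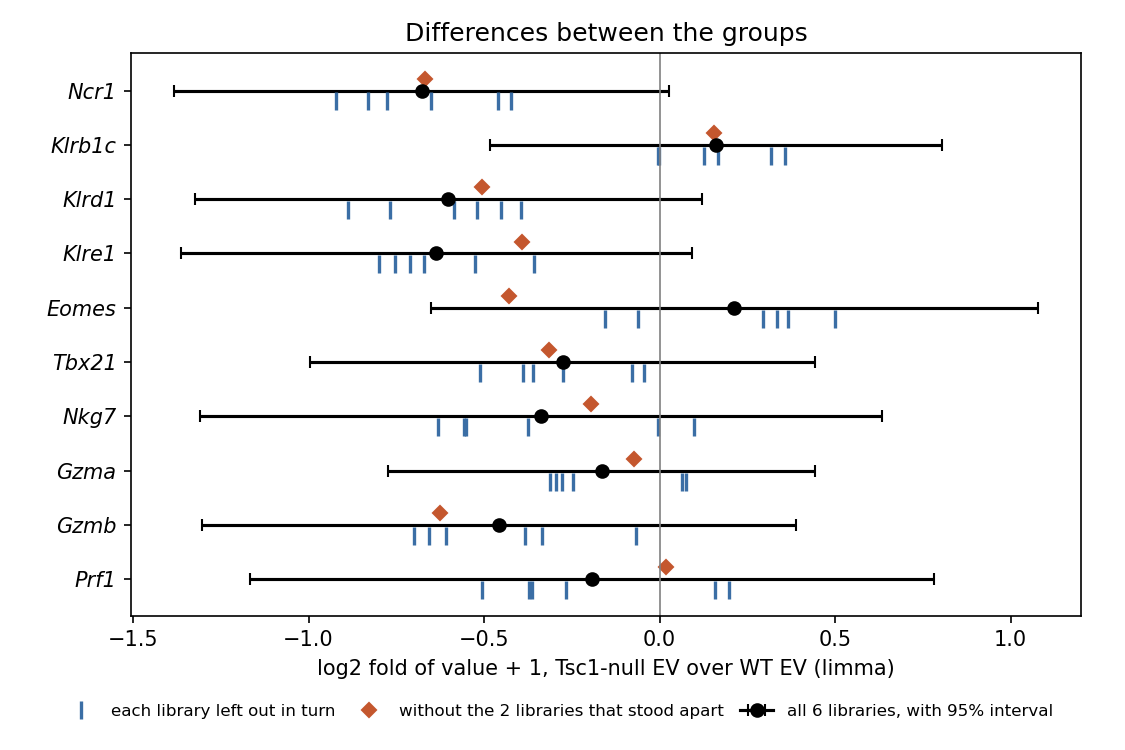
Limma log2 fold of each member (horizontal axis, value + 1, Tsc1-null EV over WT EV): black points with 95% intervals for all 6 libraries, blue ticks with 1 library left out, and red diamonds without the 2 libraries that stood apart. Every interval includes 0, and the ticks of Ncr1, Klrd1, Klre1, Tbx21 and Gzmb all lie below 0.

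For each of the 10 members, the range within at least 1 group was wider than the difference between the group means. WT EV replicate 1 was the highest of the 6 lungs for 8 of the 10 members, all except Klrb1c and Eomes, where 12.9% of all genes were highest in that lung. Tsc1-null EV replicate 1 was the lowest lung for 6 of the 10 members (Ncr1, Klre1, Tbx21, Nkg7, Gzma and Prf1), beside 30.3% of all genes. The part of its depth and of its high Malat1 in these low values was not tested. With every member scaled to its own mean and SD over the 6 lungs, the mean over members was 1.32 in WT EV replicate 1 and -1.01 in Tsc1-null EV replicate 1, and lay between -0.46 and 0.16 in the other 4 lungs.

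Levels can be ordered between genes only per length, so each value was divided by the merged exon length of the gene in GENCODE M21. Per kb of exon, Gzma was far above the rest, at 32.7 ± 9.90 in the WT EV and 29.0 ± 7.89 in the Tsc1-null EV lungs (CPM per kb, SD, n = 3 each). Nkg7 followed at 9.69 ± 4.77 and 7.59 ± 3.72, and Ncr1 at 6.39 ± 2.18 and 3.73 ± 1.22, and their SD ranges overlapped in both groups. Klrd1 was at 3.26 ± 1.30 and 1.82 ± 0.580 and Gzmb at 2.52 ± 1.65 and 1.51 ± 0.560, again not apart beyond their spread. Prf1, Tbx21, Klrb1c and Eomes lay together between 0.890 and 1.23 in both groups, and Klre1 was lowest, at 0.505 ± 0.109 and 0.238 ± 0.158. Granzyme A transcripts thus stood well above those of granzyme B and perforin in all 6 lungs.

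A ratio of 2 transcripts in the same lung does not depend on the scaling of the library. Klrb1c over Ncr1 was 0.324, 0.341 and 0.288 in the WT EV lungs and 0.722, 0.485 and 0.712 in the Tsc1-null EV lungs, so every Tsc1-null EV lung was above every WT EV lung. For Gzma over Ncr1 the values were 3.36, 4.0 and 2.89 against 5.56, 4.80 and 5.12, also without overlap. Tbx21 over Ncr1 was 0.324, 0.273 and 0.288 against 0.389, 0.379 and 0.390, and Eomes over Ncr1 was 0.472, 0.296 and 0.450 against 2.00, 0.500 and 0.576. These 4 of 9 ratios had separate groups, each higher with Tsc1-null EV, where 32.8% of all tested genes also had a higher ratio to Ncr1 without overlap. The other 5 overlapped, Prf1 over Ncr1 among them at 0.407, 0.318 and 0.213 against 0.278, 0.394 and 0.661. All 9 share Ncr1 as the denominator and are not independent, and they were not tested. In Tsc1-null EV replicate 1, where the Eomes ratio was highest, Eomes rested on 36 reads and Ncr1 on 18. The Tbx21 ratio of that lung rested on 7 reads of Tbx21. A ratio shows unequal levels of 2 transcripts and not which of them differed.

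**Figure D3:**
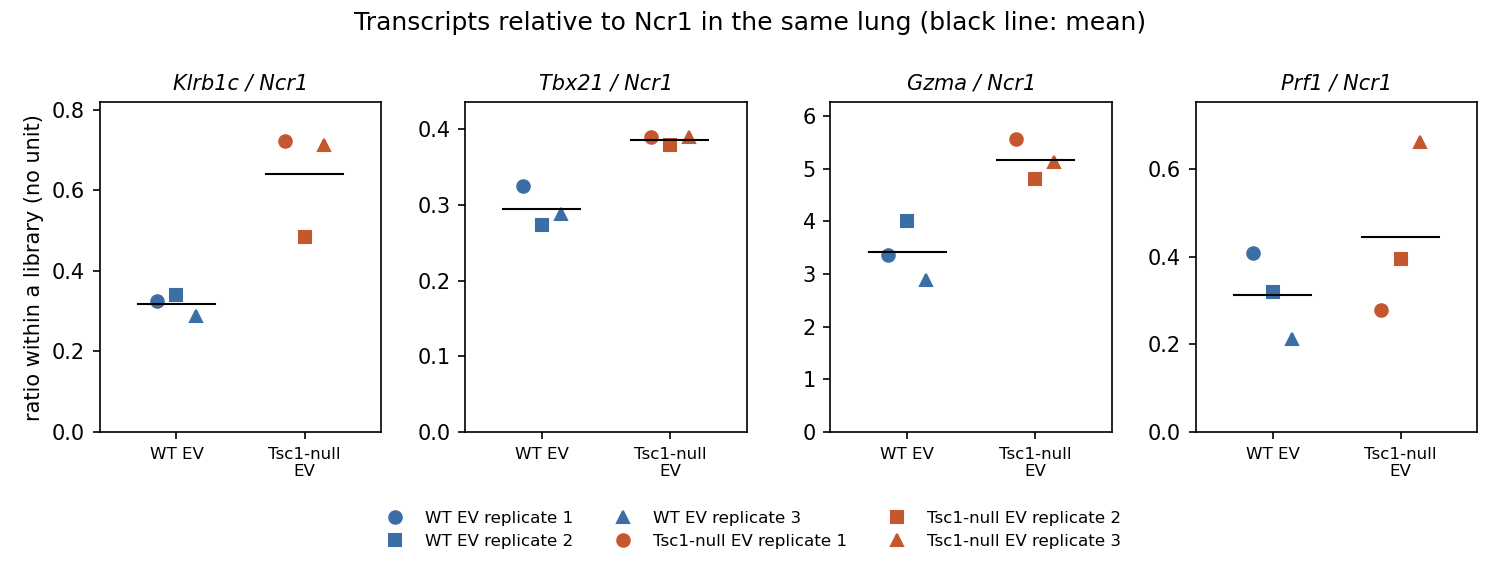
Ratio of 4 member transcripts to Ncr1 within each lung (vertical axes, no unit, from 0), by group, with the mean as a black line. The groups are separate for Klrb1c, Tbx21 and Gzma and overlap for Prf1.

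Other genes of the NK pathway were followed in 8 lists. Limma called 0 of the 119 genes tested from these and the marker lists, with 6 at an unadjusted p under 0.05. EdgeR and DESeq2 also called 0, with 8 of 115 and 8 of 164 genes at an unadjusted p under 0.05. DESeq2 gave no adjusted p for 101 of its 164 genes, so these could not be called. The unadjusted shares were near the 6.57%, 6.93% and 5.22% of all genes in the limma, edgeR and DESeq2 fits. Among further NK receptors, 12 of 16 tested had a log2 fold below 0, with a median of -0.17. Klrb1b, an inhibitory lectin-like receptor and a paralog of Klrb1c, was at 3.29, 3.23 and 3.70 with WT EV and 2.41, 2.26 and 2.32 with Tsc1-null EV, without overlap (log2 fold -0.40 ± 0.22, SE, n = 3 each). It was the 1 gene of this list with separate groups (6.25%, beside 13.1% of all genes tested). The share was 9.09% for the adaptors and 10.0% for the growth and priming genes below. Granule content and release, trafficking and ligand genes had a share of 0%. Genes named from the lists were mostly those with the smallest unadjusted p, a choice that favours separate groups. The Ly49 receptor genes Klra4 and Klra8 were listed at 0 in every lung.

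Among the adaptors that carry receptor signals, 5 of 11 were below 0 (median 0.04). Sh2d1b1, the SLAM adaptor EAT-2, was at 3.54, 4.85 and 2.96 and at 1.40, 2.48 and 2.76, without overlap. Cd247, the CD3 zeta chain through which NKp46 signals, was at 3.42, 1.91 and 2.59 and at 0.601, 1.83 and 2.65. Its groups overlapped only through Tsc1-null EV replicate 3. The other 6 adaptors lay above 0, among them Fcer1g (log2 fold 0.32) and Tyrobp (0.064), the most abundant, both with overlapping groups.

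Of 11 other transcription factors, 5 were below 0. Nfil3, needed early in NK development and also a factor of the circadian clock, was at 6.34, 3.97 and 6.54 with WT EV and 10.6, 12.3 and 8.73 with Tsc1-null EV (log2 fold 0.82 ± 0.24, SE, n = 3 each, limma adjusted p = 0.721). Prdm1, encoding BLIMP-1, was at 15.4 ± 0.114 and 9.15 ± 3.29 (SD; log2 fold -0.74 ± 0.24). Stat4, which carries the interleukin 12 signal, was at 3.17, 2.79 and 4.20 and at 4.61, 4.64 and 6.30. All 3 had separate groups (27.3% of the 11 tested, beside 13.1% of all genes tested), and all 3 are also expressed outside NK cells.

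Granule content and release genes showed no common side (6 of 11 below 0, median -0.002). Srgn, the proteoglycan serglycin that packs granzymes, was at 226, 118 and 191 and at 100.2, 114 and 144 (log2 fold -0.54). Lyst and Ctsc lay on the other side of 0, with log2 folds of 0.44 and 0.41, and all 3 had overlapping groups. Death ligands and cytokines were below 0 in 3 of 4 tested genes (median -0.56). Tnfsf10, encoding the death ligand TRAIL, was at 132, 94.2 and 136 with WT EV and 59.3, 74.4 and 91.4 with Tsc1-null EV (log2 fold -0.68 ± 0.21, SE, n = 3 each, limma adjusted p = 0.721), and Csf2 was at 3.42, 5.14 and 3.33 and at 1.00, 3.02 and 2.54, both without overlap. These were 50.0% of only 4 tested genes, beside 13.1% of all genes tested, and Tnfsf10 is also made by other lung cells.

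Growth and priming genes were below 0 in 9 of 10 cases (median -0.25). Il15, the cytokine that NK cells need to survive, was at 4.39, 5.73 and 3.70 with WT EV and at 3.41, 3.34 and 2.54 with Tsc1-null EV, without overlap (log2 fold -0.44 ± 0.24, SE, n = 3 each, limma adjusted p = 0.728). Trafficking receptors were below 0 in 5 of 11 cases, with Cxcr6 at 4.15, 5.44 and 6.54 and at 3.41, 4.21 and 2.54. On the other side of 0 were Cx3cr1, Itgam and S1pr5, with log2 folds of 0.20, 0.16 and 0.25. Ligands seen by NK cells were below 0 in 7 of 12 cases. Clec2d, a ligand of the Klrb1 family, was at 112, 211 and 167 and at 137, 88.7 and 80.4. H2-T23, which encodes Qa-1, was at 208, 177 and 200 and at 93.2, 198 and 204. Above 0 were Pvrl2 (log2 fold 0.35), at 84.2, 64.2 and 71.1 and at 112, 91.7 and 78.7, and Cdh1 (0.56). Cdh1 was at 561, 294 and 421 and at 844, 587 and 452.

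**Figure D4:**
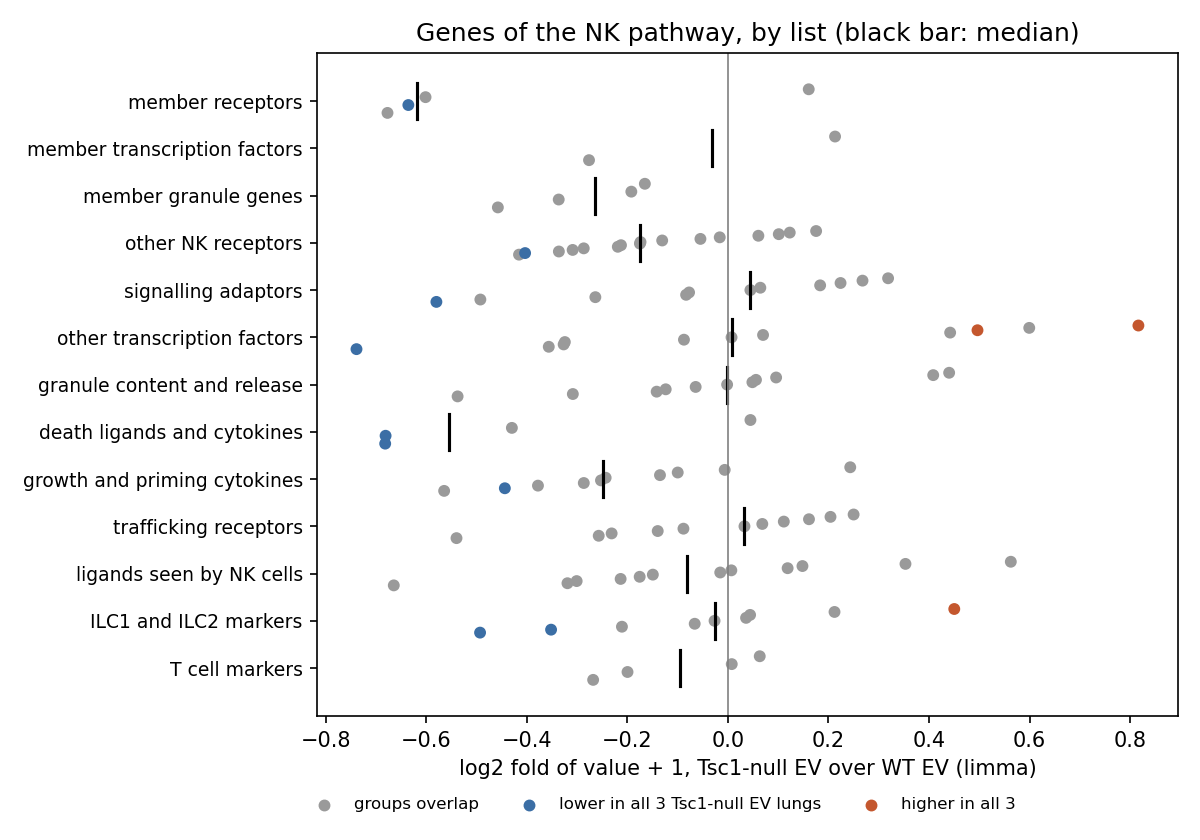
Limma log2 folds (horizontal axis, value + 1, Tsc1-null EV over WT EV) of the tested genes of each list, with the median as a black bar and genes with separate groups in blue (lower) or red (higher). Of the 4 member receptors 3 lie at or below -0.60 and Klrb1c at 0.16, and most lists straddle 0.

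Markers of other cells were read to place the members. The B cell gene Pax5 was listed at 0 in every lung. The 11 T cell genes in the table summed to 13.5 to 18.7 in the WT EV and 15.0 to 16.5 in the Tsc1-null EV lungs, and most of this was Cd4, Lck and Bcl11b, of which Cd4 is also made by myeloid cells and Lck by NK cells. The CD3 chains and CD8, chosen after their values were seen, were low but not absent: Cd3e was at 0.12 to 0.97 and Cd8a at 0.20 to 0.55 over the 6 lungs, while Cd3d reached 2.41 in Tsc1-null EV replicate 1. Cd3g was at 1.098, 1.03 and 1.604 with WT EV and 1.40, 0.32 and 0.99 with Tsc1-null EV, from 3 to 13 reads a lung, about the level of the member Klre1. ILC1 and ILC2 markers were below 0 in 5 of 9 cases and summed to 390 to 487 and 443 to 515. Most of this was Tmem176a and Rora, and the cells that made them cannot be told in whole lung. Il5 and Il13 of this list, chosen after their values were seen, were at 0 to 0.33 and 0 to 0.15. Rora was at 105, 103 and 103 and at 76.4, 66.9 and 77.8, without overlap. Gata3 was at 21.1, 18.1 and 20.1 and at 17.0, 14.4 and 14.4, also without overlap. Tmem176a, of the same list, went the other way without overlap, at 225, 155 and 249.2 and at 295, 254 and 297 (log2 fold 0.45 ± 0.20, SE, n = 3 each). Genes with separate groups made up 33.3% of the 9 tested in this list, beside 13.1% of all genes tested. Mast cell and basophil genes summed to 8.97 to 10.5 and 5.61 to 10.6, and neutrophil genes to 56.9 to 98.3 and 79.9 to 95.8. Their part in the member values was not tested. Scgb1a1, the secretory protein of airway club cells, was the most abundant lung marker in both groups, at 56437 ± 10469 and 73674 ± 15714 (SD, n = 3 each).

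In build mm10 (GRCm38, GENCODE M21) all 10 members are protein-coding genes. The 3 lectin-like receptor genes lie on chromosome 6, Klrb1c from 128778485 to 128789215 on the minus strand, Klre1 from 129577905 to 129585827 and Klrd1 from 129591782 to 129598775, both on the plus strand. Ncr1 lies on chromosome 7 from 4337724 to 4345164, and Nkg7 on the same chromosome from 43437073 to 43438249, both on the plus strand. Gzma is on chromosome 13 from 113093825 to 113100981, Gzmb on chromosome 14 from 56258838 to 56262260 and Tbx21 on chromosome 11 from 97098071 to 97115331, all on the minus strand. Prf1 is on chromosome 10 from 61297833 to 61304680 and Eomes on chromosome 9 from 118478212 to 118486132, both on the plus strand. Klrb1c shares 413 exon bases with the protein-coding gene Gm44511 on the same strand, and Eomes shares 118 with the antisense gene Gm33460. Reads in these shared bases cannot be assigned with certainty.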

How the data were processed

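The authors deposited 1 table with a TMM-normalized signal for each gene and library. From the table's name and column totals of 964931 to 1022663, they were read as linear TMM-normalized CPM. Bowtie2 2.1.0, RSEM 1.2.15, edgeR and mm10 are named, without roles, per the submitters' processing notes. Annotation, filtering and strand use were not given in the sources used here. Rat and mouse reads cannot be told apart in these values. In every column all values were whole multiples of 1 step (100% within 0.001 of a whole number), which gave the reads.

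Groups came from the treatment label, and each library was taken as 1 mouse. The labels do not say how the samples were handled, so p-values measure the spread between these samples. Between libraries of the same group the chi-square of the reads per degree of freedom was 8.78 to 55.2, so no 2 were copies. The 14159 genes with a mean of at least 1 entered limma 3.58.1 (R 4.3.3) as log2(value + 1), with an intensity trend, a two-sided moderated test, Benjamini-Hochberg adjustment over all of them and a threshold of 0.05. Folds on this scale understate those of low genes. With 3 against 3, an exact permutation test of a single gene cannot go below p = 0.1. The steps were tested on simulated data.

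All 10 members are named. From the other lists, genes with the smallest unadjusted p, the highest-expressed gene and markers at 0 could be named. Runx3, Cd3d, Cd3e, Cd8a, Il5 and Il13 were chosen with their values in view. The members and lists were chosen with earlier results of these data known. As alternatives the pseudocount was set to 0.5 or 0.1, the filter was dropped or raised to 5, libraries were brought to a common median or quantile normalized, and limma was run without trend, with robust shrinkage or with sample weights. EdgeR 4.0.16 and DESeq2 1.42.0 were run on the reads, and each replicate was left out. Dropping both libraries that stood apart, or modelling them with a term, was chosen after seeing the data.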

Additional observations from a re-analysis of the deposited data

How the results depend on the processing

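No member was called under any alternative; the smallest limma adjusted p of a member was 0.0892, for Ncr1 with sample weights, over a range up to 0.994 for that gene. Ncr1, Klrd1, Klre1, Tbx21 and Gzmb stayed below 0 throughout, but some came close to it: with 1 library left out their log2 folds ran from -0.92 to -0.42, -0.89 to -0.40, -0.80 to -0.36, -0.51 to -0.045 and -0.70 to -0.067 in that order. With sample weights the log2 fold was -0.031 for Klrd1, -0.34 for Klre1, -0.13 for Tbx21 and -0.083 for the median of the members, -0.21 for Eomes, 0.024 for Nkg7, 0.12 for Gzma and 0.16 for Prf1, and without the 2 libraries that stood apart it was -0.43 for Eomes and 0.017 for Prf1; the cause was not tested. With 1 library left out it ran from -0.0038 to 0.36 for Klrb1c, -0.16 to 0.50 for Eomes, -0.63 to 0.10 for Nkg7, -0.31 to 0.076 for Gzma and -0.51 to 0.20 for Prf1, and the median of the members from -0.52 to -0.02. Members with separate groups numbered 1 to 3 with 1 library left out and 4 without the 2 libraries that stood apart, where fewer lungs are compared and 18.8% to 29.1% of all genes separate with 1 left out. Over all genes limma called 1050 with sample weights, 25 without these 2 libraries, 1 with a term for them and 0 to 2 with 1 library left out, and DESeq2 called 12. DESeq2 gave no adjusted p for 9 of the 10 members. The filter at a mean of 5 left only Ncr1, Nkg7 and Gzma. Without both libraries that stood apart, the log2 folds were -0.67 for Ncr1, -0.51 for Klrd1, 0.16 for Klrb1c and -0.31 for Tbx21. For the granule genes Nkg7, Gzma and Gzmb they were -0.20, -0.07 and -0.62. No paired analysis was possible because the labels number the 6 samples in 1 series and share no number between the groups. With as few as 1 read for a member in a lung, small differences were not detectable at this depth.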

Other observations

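The genes whose pattern over the 6 lungs was most like that of the members were ranked among 11692 other genes with a mean of at least 5, by the correlation of log2(value + 1) with the mean of the scaled members. The first 5 were Mis12, a kinetochore protein (Pearson r = 0.988, Spearman rho = 0.943), Ptrf, the caveolar coat protein cavin 1 (0.982 and 1.0), Xrcc1, a scaffold of DNA single-strand break repair (0.981 and 0.943), Tpgs2, a subunit of a tubulin polyglutamylase (0.979 and 1.0), and Sdhaf2, an assembly factor of succinate dehydrogenase (0.978 and 0.829). No lymphocyte gene was among these 5, but the minimum mean of 5 kept out those of lower level, such as Klrg1, Cd247 and Bcl11b. The 6 points share their libraries and depth, and with so few of them high values arise for many of the genes ranked, so this is a description only. Ptrf, the most abundant of the 5, was at 1197, 901 and 991 in the WT EV lungs and at 883, 1004 and 1040 in the Tsc1-null EV lungs, with the extremes in the replicate 1 lung of each group, as for Gzma.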
